A study of Mus musculus with 2 samples.

Results

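Polycomb group genes encode the subunits of chromatin complexes that keep developmental genes silent, and 10 of them (Ezh1, Ezh2, Eed, Suz12, Ring1, Rnf2, Bmi1, Cbx2, Cbx7 and Phc1) are described here in distal forelimbs with and without a large inversion next to the HoxD cluster. They were taken by gene symbol from a deposited table of 64053 transcripts, where they have 42 transcripts, and form 10 of the 23157 genes obtained by summing transcripts. There are 2 libraries, 1 of wild type and 1 of embryos homozygous for the HoxD Inv(TpSB1-Itga6) allele, both from E12.5 forelimbs of strain C57Bl6CBAF1 labelled as distal limb, each a pool given as 3 pairs. The wild-type sample is titled wtFL and the other invDFL, although the tissue label is the same and the table names the wild-type column wtDFL, so that distal tissue in wild type rests on the label and the column name. The mutant allele inverts 2.4 Mb of chromosome 2, and no other treatment or allele is given for either group.

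The Polycomb proteins work in 2 main complexes. Polycomb repressive complex 2 (PRC2) methylates histone H3 on lysine 27 through its enzyme Ezh2, or the paralog Ezh1, which need Suz12 and Eed to be active. Polycomb repressive complex 1 (PRC1) attaches ubiquitin to histone H2A through Ring1 or Rnf2, held in canonical complexes by a Pcgf protein such as Bmi1, a Cbx protein that reads the methyl mark and a Phc protein. In the limb, the Hox clusters and genes such as Dlx1 and Dlx2 are known targets of these complexes wherever they are not transcribed.

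The wild-type library held 9280660 reads and the inversion library 9466154. Values are normalized reads, that is, read counts scaled by the authors to a common library size, and each comparison is the log2 ratio of the inversion value to the wild-type value with 1 added to both. With 1 library per genotype no difference has a replicate check and no test between genotypes can be made. The 95% intervals are exact Clopper-Pearson intervals on the share of a gene's reads that came from the inversion library. They cover counting error only and compare 2 libraries. Each counted read is treated as separate, so they would be too narrow where a gene sum holds a read more than once. In pooled tissue, fewer cells of a type and less RNA per cell cannot be told apart. Limb mesenchyme was present in both pools, with 3857 and 3913 reads of Prrx1 and 1084 and 1208 of Hoxa13, while Hoxd13 had 2264 and 1522. The pools differed in embryo sex, with 2607 reads of Xist in wild type and 13 in the inversion. None of the 10 genes lies on a sex chromosome, and gene positions below are those of GENCODE M21 on GRCm38.

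No member differed by 2-fold between the libraries, and in 5 of the 10 the 95% interval included 0. In the inversion library 0 of 10 members were higher by 2-fold or more (3.99% of the 16756 genes whose mean reached 10 normalized reads), and 0 were lower by as much (0.483% of all genes). At 1.5-fold, 1 member was higher (9.41% of all genes) and 0 were lower (2.04% of all genes). The median log2 ratio of the members was -0.0041, beside -0.02 over all genes tested. In 3 members, Ezh1, Ring1 and Cbx7, the interval lay above 0 (16.7% of all genes), and in 2, Rnf2 and Cbx2, it lay below 0 (13.0% of all genes). With 10 members, neither count is far from its background share. The shares are not matched for depth, so this nearness says little. Every member but Cbx7 had 319 or more reads in each library, and intervals are narrower where reads are many. Among the 11831 genes whose mean reached 100, only 139 passed 2-fold upwards and 12 downwards. The shares of all genes quoted below have the same limit.

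**Figure D1:**
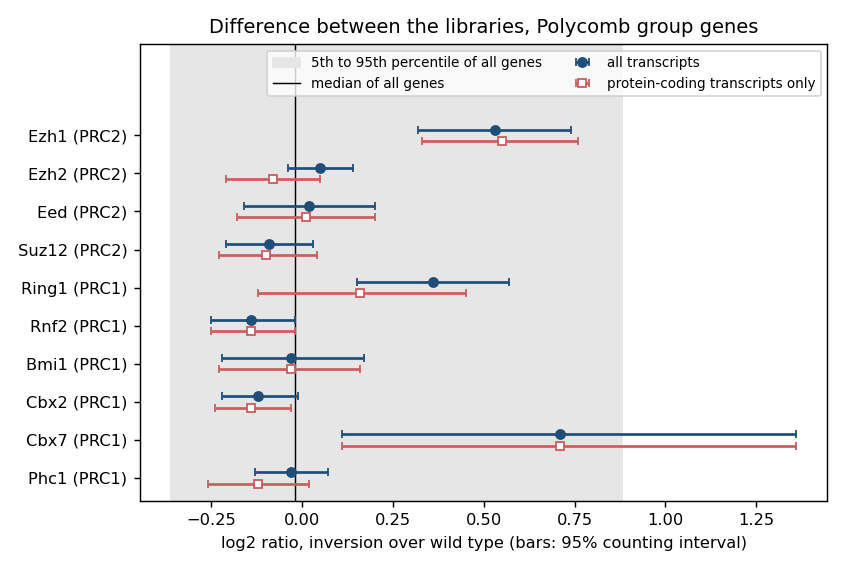
Log2 ratio (inversion to wild type) for each Polycomb gene (filled circles, all transcripts; open squares, protein-coding transcripts only), with exact 95% counting intervals and 1 library per genotype. The grey band runs from -0.36 to 0.88, the 5th and 95th percentiles of all genes tested. Ezh1 and Cbx7 lie above 0 on both measures, whereas the value of Ring1 drops from 0.36 to 0.16 over coding transcripts.

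Among the 4 PRC2 members, Ezh2 was the most abundant and its interval included 0. Ezh2 (chr6:47530139-47595030) had 1926 (wild type) and 1994 (inversion) normalized reads, which gives a log2 ratio of 0.05 (95% interval -0.04 to 0.14). Its paralog Ezh1, a weaker methyltransferase that is typical of non-dividing cells (chr11:101191115-101226463), had 323 (wild type) and 466 (inversion) normalized reads. That is a 1.44-fold difference, with a log2 ratio of 0.53 (95% interval 0.32 to 0.74), and 10.6% of all genes tested had a higher ratio. The scaffold Suz12 (chr11:79993106-80034123) had 1128 and 1062 normalized reads, which gives a log2 ratio of -0.09 (95% interval -0.21 to 0.03). Eed, the subunit that binds the methyl mark (chr7:89954654-89980983), had 502 and 509 normalized reads, and its log2 ratio of 0.02 has a 95% interval of -0.16 to 0.20. Thus the obligate partners differed by less than their counting error, and Ezh1 alone of the 4 PRC2 members had an interval away from 0.

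In PRC1 the paralogs Rnf2 and Ring1 had ratios of opposite sign. Rnf2, also called Ring1b and the main ubiquitin ligase of the complex (chr1:151469406-151500955), had 1288 (wild type) and 1171 (inversion) normalized reads, which gives a log2 ratio of -0.14 (95% interval -0.25 to -0.02). Its paralog Ring1 (chr17:34020792-34024680) had 347 and 445 normalized reads, which gives a log2 ratio of 0.36 (95% interval 0.15 to 0.57). Both intervals exclude 0, in opposite directions, and that of Rnf2 only narrowly. Over coding transcripts only, the log2 ratio of Ring1 was 0.16 (95% interval -0.12 to 0.45), which includes 0.

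The chromobox genes Cbx2 and Cbx7 also had ratios of opposite sign. Cbx2 (chr11:119022962-119031270) had 1647 and 1521 normalized reads, which gives a log2 ratio of -0.12 (95% interval -0.22 to -0.01). Cbx7 (chr15:79915807-79932652) was the rarest member, with 36 wild-type and 61 inversion reads, a 1.65-fold difference and a log2 ratio of 0.71. Its 95% interval of 0.11 to 1.36 shows how little these few reads fix the size of the difference. With the transcript of highest mean alone, the interval was -0.15 to 1.62, which includes 0. Cbx7 is the member past 1.5-fold, and 7.13% of all genes had a higher ratio. It overlaps Apobec3 on the opposite strand by 100 bases, and 148 and 170 reads of Apobec3 were counted in all. Whether the assignment of reads used the strand is not given in the sources used here. Eed, Ezh2, Rnf2 and Suz12 also overlap other annotated genes, by 190 to 12515 bases, and no reads are listed for those genes.

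The remaining PRC1 members, Bmi1 and Phc1, differed by less than their counting error. Bmi1, which stabilizes the ligase and represses the Ink4a/Arf locus (chr2:18677018-18686629), had 448 and 439 normalized reads (log2 ratio -0.03, 95% interval -0.22 to 0.17). It is the one member on chromosome 2, 53.1 Mb from Itga6 at the edge of the inverted segment. Phc1, whose SAM domain joins PRC1 complexes into larger assemblies (chr6:122317731-122339656), had 1590 and 1556 normalized reads (log2 ratio -0.03, 95% interval -0.13 to 0.07).

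Divided by the mean length of the transcripts that carry the reads, the order of the 10 levels was the same in both libraries. The transcripts of Ezh2 and Phc1 without a match in the annotation have reads in these levels but no known length. Ezh2 was the highest, with 829 normalized reads per kb in wild type and 858 in the inversion. Phc1 followed with 480 and 469, Cbx2 with 435 and 402 and Rnf2 with 408 and 371. These sums may hold reads of overlapping transcripts more than once, and Phc1 has 8 transcripts where Rnf2 has 1. The rank of Phc1 above Cbx2 and Rnf2 may therefore rest on how reads were counted. Over coding transcripts only, Phc1 had 849 wild-type reads, Cbx2 1626 and Rnf2 1272. The exact Poisson intervals of Cbx2 (414 to 457 in wild type) and Rnf2 (386 to 431) overlap, so that their order is not fixed by these reads, and Phc1 (456 to 504) overlaps Cbx2 at the edge. Suz12 (296 and 278 per kb) and Eed (267 and 271 per kb) also overlap each other. Lower down stood Ring1 (158 and 202 per kb), Bmi1 (137 and 134 per kb) and Ezh1 (83.6 and 121 per kb). The wild-type intervals of Ring1 and Bmi1 overlap, whereas the wild-type interval of Ezh1 ended at 93.3, below that of Bmi1. In the inversion library the intervals of Ezh1 (110 to 132) and Bmi1 (122 to 148) overlap, so that their order there is not fixed by these reads. Cbx7 came last with 11.5 and 19.1 normalized reads per kb.

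The levels of paralogs are set side by side here as a description, with no test. Per kb of transcript, Ezh2 was 9.91 times as high as Ezh1 in wild type and 7.11 times in the inversion. Rnf2 exceeded Ring1 by 2.59 times and 1.83 times, and Cbx2 exceeded Cbx7 by 37.7 times and 21.1 times. The last ratio rests on the 36 and 61 reads of Cbx7, and the ratio of Rnf2 to Ring1 includes the retained-intron reads of Ring1. The first ratio uses every read of Ezh2, and coding transcripts held only 53.7% (wild type) and 49.1% (inversion) of them. Retained-intron transcripts of Ezh2 held 14.6% and 23.7%, and an unmatched transcript without a known length held 20.7% and 18.1%. These 3 pairs were formed after the values were seen.

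**Figure D2:**
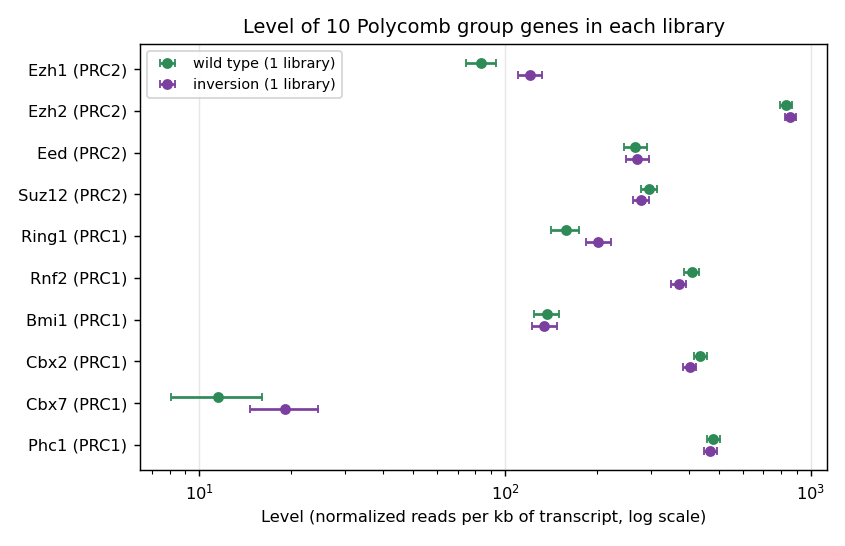
Level of each Polycomb gene in the wild-type (green) and the inversion (purple) library, in normalized reads per kb of transcript on a log axis, with exact 95% Poisson intervals of the reads. The levels run from 11.5 for Cbx7 to 829 for Ezh2 in wild type. Ezh1, Ring1 and Cbx7 are shifted to the right in the inversion.

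The transcripts that carry the reads differed between members. Identifiers were matched to GENCODE M21, which gave a transcript type for 40 of the 42, and 23 transcripts held at least 10% of their gene's reads in either library. The simplest genes were Rnf2, whose reads all fell on its coding transcript Rnf2-201, and Cbx2, where Cbx2-201 held 99.9% of the wild-type and 98.6% of the inversion reads. The 2 coding transcripts of Cbx7 shared its reads, with 19 and 32 for Cbx7-201 and 17 and 29 for Cbx7-203. Bmi1-201 held 62.7% and 61.6% of the reads of Bmi1, and Bmi1-202 nearly all of the others. For Eed the coding transcript Eed-201 held 88.5% and 88.2%, and the retained-intron transcript Eed-202 the rest. None of these shares moved beyond its counting interval except in Cbx2.

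In Ezh1 each main coding transcript had more reads in the inversion library, but these counts may share reads. How reads on overlapping transcripts were assigned is not given in the sources used here, so the transcripts may not be separate measures. Ezh1-202 had 118 wild-type and 178 inversion reads, Ezh1-203 had 117 and 176, and Ezh1-201 had 60 and 88. Their shares of the gene were 37.0% and 37.7%, 36.7% and 37.3%, and 18.8% and 18.6%, each within the counting interval of the other library. Over coding transcripts only, the log2 ratio of Ezh1 was 0.55 (95% interval 0.33 to 0.76).

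Near-equal counts of long transcripts also occurred in Suz12, where Suz12-206 had 482 and 464 reads and Suz12-201 had 480 and 459. In Phc1, the coding transcripts Phc1-201, Phc1-204 and Phc1-211 and the unmatched ENSMUST00000169419 had from 226 to 297 wild-type and from 215 to 275 inversion reads. Whether reads shared by overlapping transcripts were divided between them or counted in each is not given in the sources used here, and gene sums may hold such reads more than once.

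In Ring1, Ezh2 and Phc1 a larger part of the reads fell on transcripts with a retained intron in the inversion library. For Ring1, coding transcript Ring1-201 had 194 wild-type and 223 inversion reads, while the retained-intron transcripts together had 149 and 228. The share of retained-intron reads was 43.4% in wild type (95% interval 38.1% to 48.9%) and 50.6% in the inversion (45.8% to 55.3%). Most of the additional reads of Ring1 were thus on retained-intron transcripts, and over coding transcripts only its log2 ratio was 0.16, with a 95% interval of -0.12 to 0.45 that includes 0.

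Ezh2 had a steady total made of opposite movements. Its main coding transcript Ezh2-204 had 948 wild-type and 918 inversion reads, and all coding transcripts together had 1022 and 992 (log2 ratio -0.08, 95% interval -0.21 to 0.05). The 3 retained-intron transcripts together went from 278 to 479 reads, a 1.68-fold difference with a log2 ratio of 0.75 (95% interval 0.53 to 0.97). Among these, Ezh2-207 had 207 and 337 reads, Ezh2-212 had 44 and 98 and Ezh2-210 had 27 and 44. Their share of the gene was 14.6% in wild type (95% interval 13.1% to 16.3%) and 23.7% in the inversion (21.9% to 25.6%). The nonsense-mediated decay transcripts Ezh2-208 and Ezh2-209 together had fewer reads in the inversion, 139 and 90 (log2 ratio -0.66, 95% interval -1.06 to -0.27).

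In Phc1 the retained-intron transcript Phc1-216 had 307 wild-type and 384 inversion reads (log2 ratio 0.29, 95% interval 0.07 to 0.51). The coding transcripts of Phc1 together had 849 and 801 reads (log2 ratio -0.12, 95% interval -0.26 to 0.02). The retained-intron share was 19.6% in wild type (95% interval 17.6% to 21.6%) and 24.4% in the inversion (22.3% to 26.6%).

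**Figure D3:**
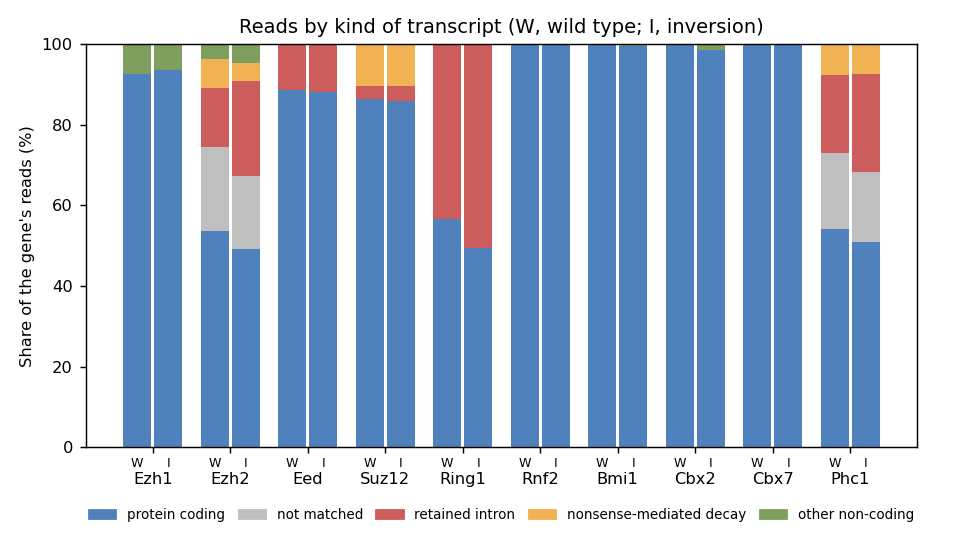
Share of each Polycomb gene's reads on transcripts of each type, in percent, with the wild-type library (W) to the left of the inversion library (I). Grey marks 1 transcript of Ezh2 and 1 of Phc1 that had no match in the annotation. The retained-intron part (red) is larger in the inversion for Ezh2, Ring1 and Phc1 and about equal for Eed and Suz12.

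The sequences below show where these introns begin, so that spliced and retained forms can be told apart. Each line gives the last 30 bases of the exon in capitals and the first 30 of the intron in lower case, in transcript sense, from the GENCODE M21 transcript that keeps the intron. All coordinates are on GRCm38, another build than the NCBIM37 of the mapping, and each of the genes lies on the minus strand. Introns are numbered in the main coding transcript and lie between coding exons. Ring1-203 keeps introns 4 and 5 of 6, which span 293 and 339 bases. This transcript also holds 479 of the 835 bases of intron 2, for which no line is given. Ezh2-207 keeps introns 13 and 14 of 19 (395 and 989 bases), and Phc1-216 keeps intron 8 of 13 (241 bases). For Ezh2-212, which holds 1288 bases at the end of intron 15, the line gives the last 30 intron bases and then the first 30 of the next exon.
Ring1-203, intron 4, chr17:34022949-34023008: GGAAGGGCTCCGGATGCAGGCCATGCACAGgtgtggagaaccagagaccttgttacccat
Ring1-203, intron 5, chr17:34022266-34022325: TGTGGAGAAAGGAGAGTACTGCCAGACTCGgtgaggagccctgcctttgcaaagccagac
Ezh2-207, intron 13, chr6:47542336-47542395: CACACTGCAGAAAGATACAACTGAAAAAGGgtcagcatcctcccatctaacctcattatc
Ezh2-207, intron 14, chr6:47541815-47541874: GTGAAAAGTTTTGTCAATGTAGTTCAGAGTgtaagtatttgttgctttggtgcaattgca
Ezh2-212, intron 15, chr6:47533808-47533867: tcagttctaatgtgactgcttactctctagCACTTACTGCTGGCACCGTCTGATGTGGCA
Phc1-216, intron 8, chr6:122322295-122322354: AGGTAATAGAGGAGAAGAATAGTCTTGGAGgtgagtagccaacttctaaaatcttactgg

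The table gives reads per transcript and not per intron, and all of these transcripts also hold exons of the coding form. The counts above therefore rest on how the pipeline assigned reads between overlapping transcripts, and reads across these boundaries were not counted here.

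The shift towards retained introns was a feature of the whole inversion library. Over all genes, retained-intron transcripts took 5.99% of the wild-type and 7.12% of the inversion reads. Among 3626 genes with at least 10 mean normalized reads on both kinds of transcript, the retained-intron log2 ratio was above the coding one in 74.8%, and in 5 of the 5 members with such transcripts. The median difference was 0.19 over all these genes. It was 0.83 in Ezh2, and 12.1% of the genes had a larger one. The difference was 0.41 in both Ring1 and Phc1, 0.25 in Suz12 and 0.05 in Eed, and 30.8% of genes exceeded Ring1. Retained-intron reads were at least 1.5-fold higher in 1 member, Ezh2 (22.4% of all these genes), and coding reads in 0 of these members (4.63% of these genes). The part of this library-wide shift in the values of the members was not tested.

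**Figure D4:**
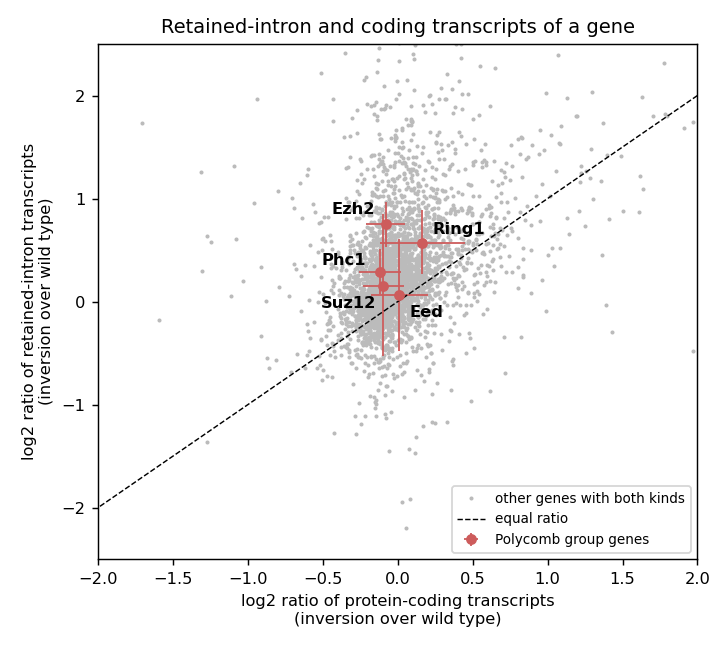
For each gene with both kinds of transcript, the log2 ratio (inversion over wild type) of its retained-intron transcripts against that of its protein-coding ones, with the 5 Polycomb genes in red and their 95% counting intervals. The dashed line marks equal ratios and 53 of 3621 other genes lie outside the axes. All 5 Polycomb genes lie on or above the line, within the cloud of other genes, and Ezh2 lies farthest from it.

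Expressed as the share of reads on coding transcripts among matched transcripts, 7 of the 8 members with both kinds were lower in the inversion (64.7% of 6528 genes with both kinds). A loss of at least 10 percentage points was seen in 0 members (7.37% of genes), and a gain of that size in 0 (3.20% of genes). The median change of the 8 members was -0.93 percentage points, beside -0.91 over all these genes. Ezh2 went from 67.7% (95% interval 65.3% to 70.1%) to 60.0% (57.6% to 62.3%), and 11% of genes had a change at least as far down. Ring1 went from 56.6% to 49.4% and Phc1 from 66.6% to 61.6%. Ezh1 moved the other way, from 92.5% to 93.6%, and the shares of Eed, Suz12 and Bmi1 each changed by at most 0.50 points.

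Single transcripts with few reads showed the largest ratios. Of the 38 member transcripts with a mean of at least 10, 2 were at least 2-fold higher (6.66% of all such transcripts) and 2 at least 2-fold lower (2.19%). The higher ones were the retained-intron transcript Ezh2-212 and the non-coding Cbx2-202, which had 1 wild-type and 22 inversion reads. With a single read its ratio of 21.5 has a 95% interval of 3.47 to 886, and these reads make up 1.43% of the gene in the inversion. The lower ones were Ezh2-208, with 67 and 30 reads (log2 ratio -1.17, 95% interval -1.87 to -0.55), and the coding Ezh2-202, with 24 wild-type and 0 inversion reads. No fold is given for Ezh2-202, and it held 1.26% of the reads of Ezh2 in wild type. These 4 transcripts were named after their values were seen.

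Of 8 other PRC2 genes, 2 passed 1.5-fold upwards (9.41% of all genes) and 0 downwards (2.04% of all genes), with a median log2 ratio of 0.07. Phf1, which guides PRC2 to chromatin through its Tudor domain, had 200 and 339 reads (log2 ratio 0.72, 95% interval 0.47 to 0.98), and its paralog Phf19 had 15 and 28 (0.82, 95% interval -0.09 to 1.87). The third paralog of this group, Mtf2, had 1161 and 1297 reads, with a log2 ratio of 0.12 (95% interval 0.01 to 0.24). At the low end stood Epop, listed as E130012A19Rik, an accessory subunit that links PRC2 to elongin, at -0.35 (95% interval -0.58 to -0.12). The histone-binding subunit Rbbp4 was at -0.19, and Jarid2, a cofactor that recruits PRC2, at 0.09. Mtf2, Epop, Rbbp4 and Jarid2 lie inside 1.5-fold.

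Of 18 other PRC1 genes, 1 was at least 1.5-fold higher (9.41% of all genes) and 0 lower (2.04%), and the median log2 ratio was -0.03. Pcgf1, the Pcgf subunit of the complex with Kdm2b and Bcor, had 51 and 81 reads (log2 ratio 0.62, 95% interval 0.11 to 1.17), while its partners Kdm2b (-0.02) and Bcor (-0.23, 95% interval -0.33 to -0.12) were not higher. Bcor was the lowest of the list, and it is X-linked, so that embryo sex and genotype cannot be told apart for it. The same holds for the X-linked Scml2, at 0.51 (95% interval 0.19 to 0.83), and Bcorl1, at -0.04 (95% interval -0.18 to 0.1). The interval lay above 0 in 6 genes of the list (16.7% of all genes) and below 0 in 3 (13.0% of all genes). Pcgf2, the closest paralog of Bmi1, was at 0.23 (95% interval 0.11 to 0.35), and Phc3, a paralog of Phc1, at 0.36 (95% interval 0.23 to 0.49). Pcgf6 had a log2 ratio of 0.35 that dropped to 0.07 (95% interval -0.16 to 0.30) over coding transcripts only.

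The genes that remove Polycomb marks lay inside 1.5-fold. Of 6 such genes, 0 were higher by as much (9.41% of all genes) and 0 lower (2.04% of all genes). Their median log2 ratio was -0.06. The interval lay above 0 in 1 of them (16.7% of all genes) and below 0 in 1 (13.0% of all genes). Asxl2, a partner of the H2A deubiquitinase Bap1, was the highest at 0.17, and Bap1 itself was at -0.10. Kdm6a, an X-linked H3K27 demethylase, was the lowest, with 1250 and 1102 reads (log2 ratio -0.22, 95% interval -0.34 to -0.10), and its Y-linked homolog Uty had 140 and 516. Embryo sex and genotype cannot be told apart for this pair.

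The products of trithorax group genes oppose Polycomb silencing, mostly in complexes that methylate histone H3 on lysine 4. Among 10 such genes the median log2 ratio was 0.03. At 1.5-fold, 0 were higher (9.41% of all genes) and 0 lower (2.04% of all genes). The interval lay above 0 in 5 of the 10 (16.7% of all genes) and below 0 in 2 (13.0% of all genes). The 4 large methyltransferases were all higher, with log2 ratios of 0.23 for Kmt2a (listed as Mll1), 0.27 for Kmt2b (Wbp7), 0.31 for Kmt2d (Mll2) and 0.33 for Kmt2c (Mll3), and each interval lay above 0. Over coding transcripts only they were at 0.24, 0.25, 0.31 and 0.33. Ash1l, a methyltransferase of another kind, was at 0.13 (95% interval 0.04 to 0.22). The 5 other subunits of the list were not higher, with Dpy30 the lowest at -0.20 (95% interval -0.45 to 0.05), Wdr5 at -0.17 and Men1 at -0.11. This grouping was made after the values were seen.

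**Figure D5:**
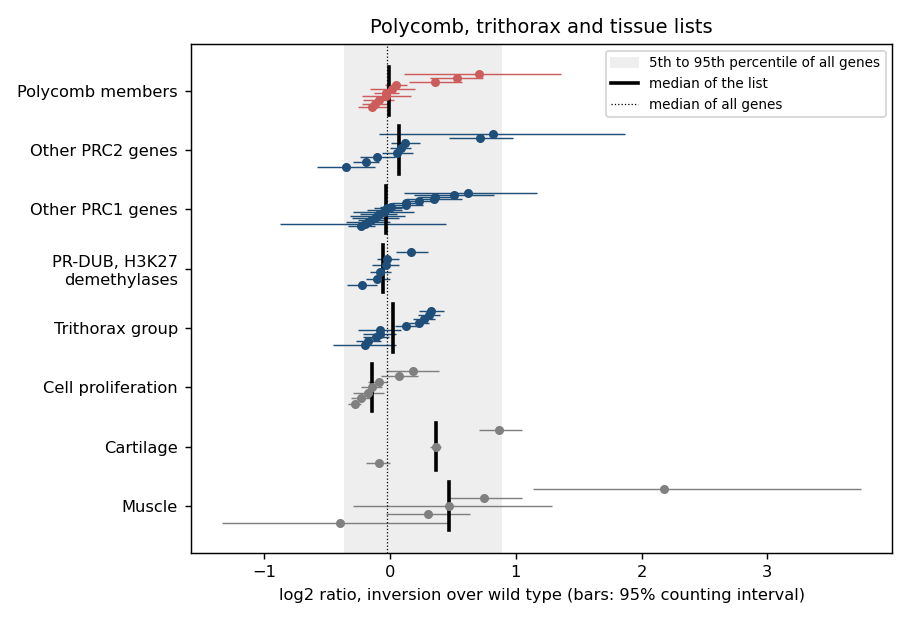
Log2 ratio (inversion to wild type) for each gene of the Polycomb members (red), the related chromatin lists (blue) and 3 tissue lists (grey), with 95% counting intervals and the median of each list as a black bar. The medians of the chromatin lists lie between -0.06 and 0.07. The medians of the cartilage and muscle lists are at 0.37 and 0.47, and that of the proliferation list at -0.14.

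Of 12 well-known Polycomb targets outside the Hox clusters, 5 had reads and 7 were not analysed here. Pax6 had 10 and 10 reads, Cdkn2b 13 and 15, Gata4 86 and 90 and Olig2 2 and 3. The imprinted gene Cdkn1c was abundant, at 1866 and 1825 reads. The 4 with a mean of at least 10 had log2 ratios from -0.07 to 0.16, each with an interval that includes 0. Of them, 0 were at least 1.5-fold higher (9.41% of all genes) and 0 lower (2.04% of all genes).

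The tissue lists also differed between the libraries, in both directions, and their part in the results above was not tested. Of 7 proliferation genes, 5 had an interval below 0 (13.0% of all genes) and 0 above (16.7% of all genes), and their summed level was 18651 (wild type) and 16360 (inversion) normalized reads. Of 5 muscle genes 4 had a ratio above 0 and 2 an interval above 0 (16.7% of all genes), with summed levels of 353 and 525. Of 3 cartilage genes 2 had an interval above 0 (16.7% of all genes), with summed levels of 8667 and 10764. Over coding transcripts only, Col2a1 went from 0.37 to 0.19, and Acan stayed at 0.87. All 4 red cell, 4 endothelial and 4 ectoderm genes had a ratio below 0, and the interval lay below 0 in 3, 1 and 3 (13.0% of all genes). Their summed levels were 23935 and 20341, 3303 and 3102, and 4200 and 3617. The 3 leukocyte genes summed to 493 and 458. None of these markers was at 0 in either library. Muscle, cartilage and proliferation values thus differed in the same comparison in which Ezh1 was higher and Cbx2 and Rnf2 slightly lower.

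The promoters of the members covered a wide range of CG content. RefSeq promoter sequences on GRCm38.p6, from 250 bases before to 50 after the start, were matched for 9 of the 10 genes, all but Cbx2. These held from 9 CG dinucleotides in Phc1 to 41 in Suz12, with a median of 30, beside a median of 7 over all 27025 promoters, and a median GC content of 66.3% beside 52.7%. Among the members with an interval above 0, Ezh1 held 23, Ring1 37 and Cbx7 33. Of all promoters, 46.2% held at least the 9 of Phc1.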

How the data were processed

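RNA-seq was analysed for 1 wild-type and 1 inversion library. Per the paper's methods and the processing notes of the labels, strand-specific poly(A) libraries were sequenced as 100-bp single-end reads, mapped to NCBIM37 (mm9) and assigned to transcripts with the HTSstation pipeline. Bowtie2 is named in the notes, and its version, and how reads on several sites were treated, are not given in the sources used here. For each transcript the deposited signal columns give the reads of each library after division by a size factor of the authors, and the mean. The deposited fold change (ratio), log2 fold change and p-value columns hold the authors' own comparison and were not used.

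Whole reads were recovered from 100% of values above 0.5, the value written for no reads, within 0.006. Transcripts were summed by symbol and chromosome, and genes with a mean of at least 10 were compared (pseudocount 1). The authors' scaling was kept, as planned for normalized values. Transcript types, lengths and positions come from GENCODE M21 (GRCm38), matched by identifier for 88.1% of transcripts. The members, the gene lists and the alternatives were chosen with earlier results of these data known. Named genes are all members, their transcripts with at least 10% of the gene's reads, and from each other list the genes past 1.5-fold and the highest and lowest. Other genes were named after their values were seen. With 2 libraries no likeness of pattern between genes was measured. The steps were tested on simulated libraries. The scripts ran in Python 3.11.15 with matplotlib 3.10.9, scipy 1.17.1, pandas 2.3.3 and numpy 2.4.6.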

Additional observations from a re-analysis of the deposited data

How the results depend on the processing

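No paired analysis was possible because each genotype has a single library, and no replicate could be left out. Of 70 values of single members under an alternative, 66 stayed within their counting interval and 4 did not. All 4 came with a choice of transcripts. Changes of scaling or pseudocount could hardly move members with many reads, and Rnf2 has only 1 transcript, so the 66 are a weak check. Ezh2 went from 0.05 to -0.0824 with the transcript of highest mean, to -0.079 over protein-coding transcripts only and to -0.1126 without retained-intron transcripts, a setting added after seeing the data. Phc1 went from -0.03 to 0.286 with the transcript of highest mean, because that transcript is the retained-intron Phc1-216. Some intervals crossed 0 without such a move. Ring1 was at 0.1641 (95% interval -0.12 to 0.45) in each of these 3 settings, so that its interval included 0, and so did that of Cbx7 with the transcript of highest mean (0.6877, -0.15 to 1.62). Without retained-intron transcripts the interval of Ezh2 (-0.21 to -0.01) lay below 0 and that of Phc1 (-0.1194) ended at 0. The interval of Ezh1 lay above 0 in every setting tried. Scaling by the total moved all log2 ratios by 0.0075 and by the upper quartile by -0.0179, too little to be a strong check. At 1.5-fold, 1 member was higher. The 2-fold threshold was passed by 668 higher and 81 lower genes. These counts were 412 higher over protein-coding transcripts only (110 lower, so 78.9% of changed genes were higher against 89.2%), 1992 and 1089 without the filter (64.7% higher), 139 and 12 where the mean had to reach 100, 1577 and 341 at 1.5-fold, and 113 and 13 at 4-fold. An exact binomial test of the whole reads, which compares libraries and not genotypes, called 2068 genes higher and 1318 lower, which is 12.3% and 7.87% of all genes, with 2 of the 10 members higher, Ezh1 and Ring1, and 0 lower. Where a setting leaves the same genes and transcripts in, the cause was not tested. Depth limits Cbx7 and the rare transcripts.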
